A study of Rattus norvegicus with 8 samples.

Results

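The genes described here carry transport between the endoplasmic reticulum and the Golgi, together with the machinery that brings proteins into the endoplasmic reticulum. The choice, made with earlier results of these data known, was by gene name. It took every probe of the array that was not a control and whose gene name in the scanner files begins as a Sec, Cop, Trappc or Tmed gene with its number or subunit letter, or is Sar1a, Sar1b or one of Arf1 to Arf6. This gave 65 genes on 93 probes, of 16415 genes and 41012 probes on the array, and 60 of the 65 genes, on 86 probes, had signal well above background on at least 3 of the 4 arrays of 1 group. The names fall into a COPII coat class of 13 genes, a COPI coat class of 8, 6 Arf GTPases and 9 p24 cargo receptors. Others are 13 TRAPP subunits, 8 translocon and signal peptidase genes, 2 Sec22 genes and 4 Sec14-like lipid transfer proteins. The pattern also takes 2 further names.

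The cells were BRL-3A, an established rat liver line, grown in serum-containing medium and transfected with lipofectamine. Of 8 arrays, 4 carried RNA of cells whose transfection is labelled NC and 4 that of cells given siRNA to the long noncoding RNA lnc19959.2, all taken 48 h after transfection. The labels give neither the dose nor the sequence of the siRNA, nor what NC stands for. Nothing says that the 4 arrays of a group came from separate cultures, so the p-values rest on array-to-array spread that may be technical only. The groups were also hybridised and scanned apart, each on a slide of its own, and in every value given here the slide and its scan cannot be told apart from the siRNA.

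Secretory and membrane proteins enter the endoplasmic reticulum through the Sec61 channel and lose their signal peptide to signal peptidase. COPII vesicles then carry them to the Golgi: the GTPase Sar1 recruits Sec23 and Sec24, Sec24 picks the cargo, and Sec13 with Sec31 builds the outer cage at exit sites organised by Sec16. COPI vesicles, recruited by Arf GTPases, return escaped proteins and receptors, p24 proteins cycle in both directions as cargo receptors, and TRAPP complexes tether vesicles and activate Rab GTPases. In liver this route exports plasma proteins and lipoproteins, and the Sar1b form is known for its part in lipoprotein export.

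Signal is given as the log2 processed intensity minus that array's 75th percentile, so 0 is the 75th percentile and 1 unit is a 2-fold difference. The 75th percentile itself was 245 to 261 intensity units for NC and 289 to 322 for siRNA, and no spot was saturated. No probe carries the name of lnc19959.2, so its level was not analysed here. Of the liver markers, Alb, Ttr, Tf, Apob and Serpina1 had no probe that passed the background filter, while 7 of 12 hepatocyte markers did, with a summed level of 3.37 to 4.11 times the 75th percentile on NC arrays and 8.65 to 11.1 times on siRNA arrays. The 7 measured of 10 fibroblast and stellate markers summed to 267 to 295 times on NC arrays and 312 to 328 times on siRNA arrays, with Lrat and Thy1 among those not measured. The sums went from 2.22 to 2.96 up to 4.32 to 5.90 for 5 of 6 endothelial markers (Pecam1 not measured), from 2.12 to 2.37 up to 4.24 to 4.85 for 3 of 5 cholangiocyte markers (Krt19 and Epcam not measured), and from 6.43 to 7.28 down to 5.13 to 6.22 for 2 of 7 leukocyte markers, with Ptprc among those not measured. Among the measured markers, 3 were called higher and 2 lower of the hepatocyte list, 3 and 1 of the fibroblast and stellate list, 3 and 2 of the endothelial, 1 and 2 of the cholangiocyte and 0 and 1 of the leukocyte list. These levels move with the groups, and their part in the results below was not tested.

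The secretory traffic genes were more often higher than lower in the siRNA group. By limma at an adjusted p under 0.05, 28 of the 60 measured genes were higher (46.7%) and 6 were lower (10.0%), while 26 did not pass the test. Of all 10812 measured genes, 35.8% were higher and 29.2% lower by the same rule. Fewer transcripts of a gene per cell and fewer cells that carry it cannot be told apart in such bulk RNA. The changes were small. The median over the 60 genes was 0.12 on the log2 scale against 0.04 over all measured genes, the largest changes were 0.94 and -0.94, and 0 of 60 were past 2-fold by their brightest probe, where 13.0% of all measured genes were. In 31 of 60 genes all siRNA arrays lay to one side of all NC arrays, beside 62.5% of all measured genes. By class, the COPI coat had 6 higher and 0 lower of 8, the p24 family 6 and 1 of 8 measured, TRAPP 7 and 0 of 13, and the COPII coat 4 and 4 of 12 measured.

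**Figure D1:**
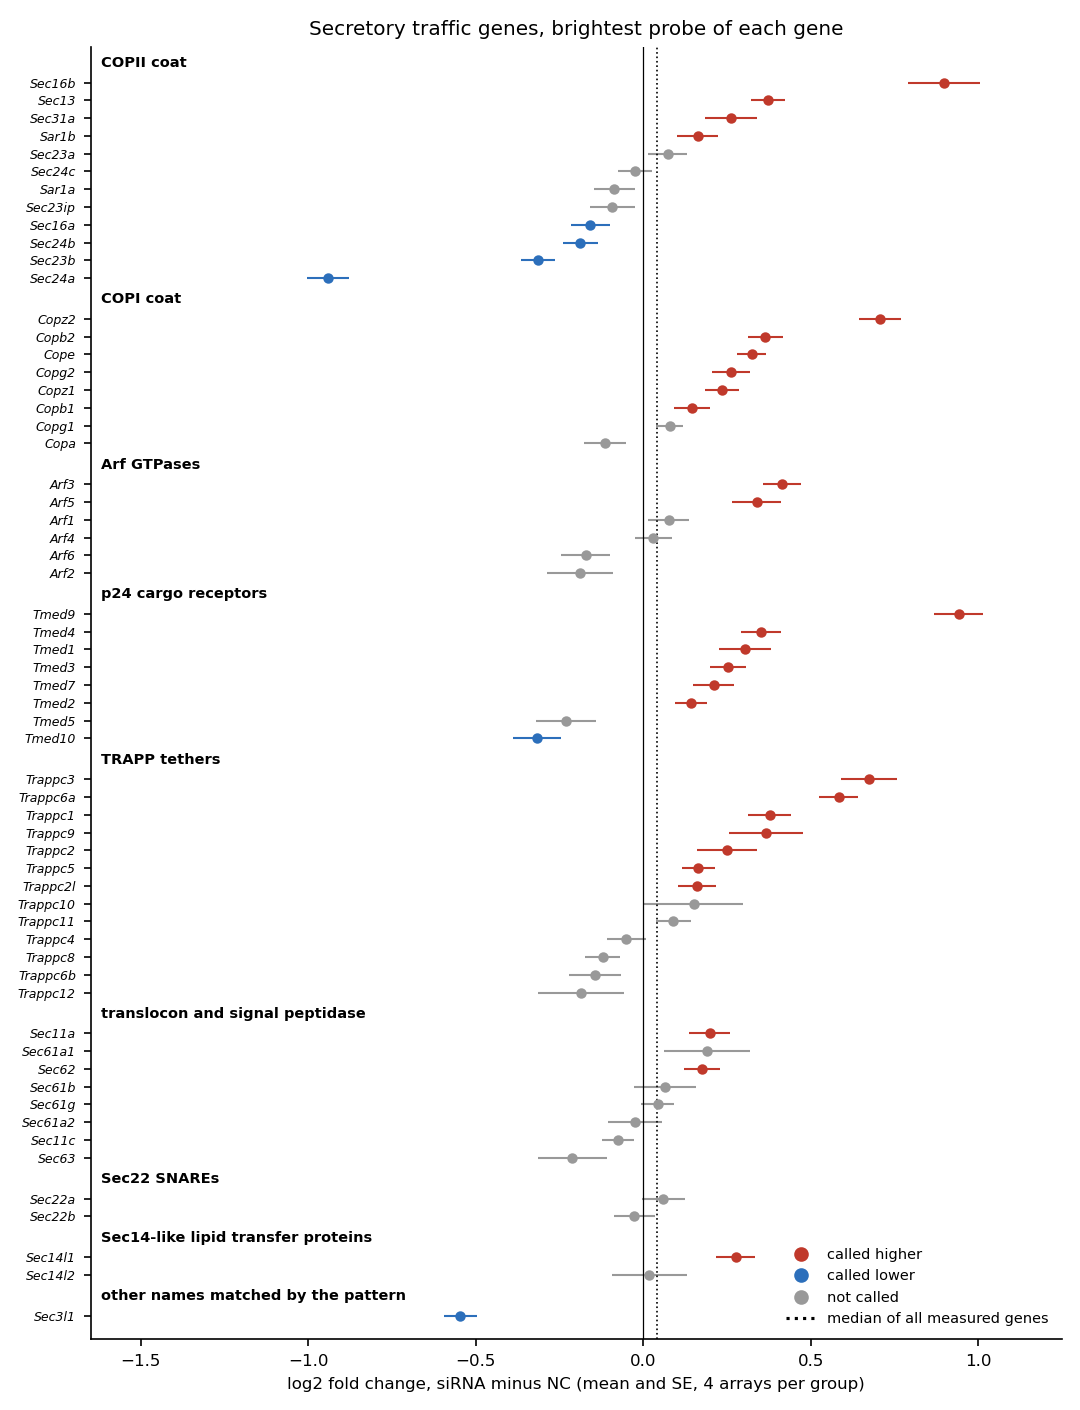
Change of each of the 60 measured genes by class, as the log2 difference of siRNA from NC arrays on the x axis (mean and SE from limma, 4 arrays per group). Red points passed the test upward and blue points downward; the COPII class spans both sides, from Sec16b at 0.90 to Sec24a at -0.94, and the dotted line is the median of all measured genes at 0.04.

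How far the split between higher and lower holds depends on how arrays are brought to a common scale. Scaling to the array's median in place of its 75th percentile adds 0.31 to every log2 change and scaling to the spike-in controls adds 0.54, so the counts became 49 higher and 2 lower by the median and 58 and 1 by the spike-in controls. The share of all measured genes called higher rose with them, to 60.2% and 72.8%, and that called lower fell to 15.3% and 9.94%. Quantile normalization gave 25 higher and 14 lower of 60 (41.7% and 23.3%), with 37.2% and 27.6% of all measured genes. Those lower then included genes of classes with no gene lower in the main analysis. They were Copa (-0.19), Arf6 (-0.20), Sec11c (-0.17), Trappc6b (-0.22) and Trappc8 (-0.22). The median of the 60 genes lay above that of all measured genes by 0.08 under the main, median and spike-in scalings and by 0.03 under quantile normalization. Since median and spike-in scaling only add to a change, quantile normalization alone of these could turn a rise, and there all 28 genes called higher kept a positive change and 22 kept their call. Of the 6 called lower, Sec24a and Sec3l1 kept a negative change, Sec24a being called lower under each and Sec3l1 reaching -0.00199 with spike-in scaling. With normexp background correction in place of that of the scanner files, 5 genes stayed called higher (Tmed9, Copz2, Trappc3, Trappc6a and Tmed4) and 1 lower (Sec24a). The share of all measured genes called under normexp is not given here, so whether this loss of calls is particular to these genes cannot be said.

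**Figure D2:**
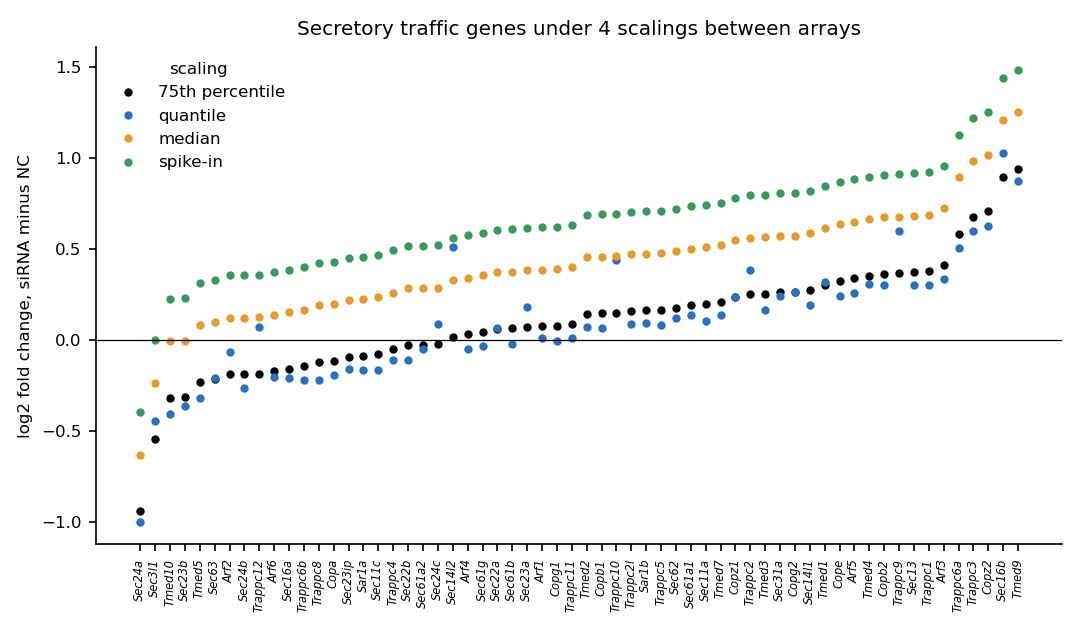
Log2 change of each measured gene (x axis, ordered by the main value) under 4 ways of scaling the arrays (colours). Median and spike-in scaling move every gene up by one amount each, so Sec24a, at -0.63 and -0.40 there, is the gene that stays clearest below 0, while quantile normalization moves some genes up and others down.

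Promoter sequences were available for 58 of the 65 genes from the RefSeq table of the GRCr8 assembly, each running from 250 bases before to 50 after the gene's start. Stress of the endoplasmic reticulum is known to raise many secretory genes through the factors XBP1 and ATF6, which bind elements with the core TGACGTGG, and through an element that joins CCAAT and CCACG with 9 bases between them. Searched on both strands, TGACGTGG occurred in 6 of 58 promoters (10.3%), beside 0.595% of all 33469 promoters of the table and 0.912% of the 9653 promoters of measured genes. The 6 were Arf1, Arf4, Copa, Copb1, Copb2 and Sec23a, of which Copb1 and Copb2 were called higher and the other 4 were not called. The bases before the start of those with the element upstream or across the start are shown because they carry this feature that the choice of genes did not use. They are read 5′ to 3′ along the gene with the element, or its reverse complement, in capitals.
Arf1: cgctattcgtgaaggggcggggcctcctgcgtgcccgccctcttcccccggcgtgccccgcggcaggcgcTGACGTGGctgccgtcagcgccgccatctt
Arf4: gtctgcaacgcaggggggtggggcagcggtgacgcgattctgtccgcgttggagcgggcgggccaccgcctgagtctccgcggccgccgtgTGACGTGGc
Copb1: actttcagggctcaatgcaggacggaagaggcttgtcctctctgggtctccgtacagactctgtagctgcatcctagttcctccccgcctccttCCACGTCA
Copb2: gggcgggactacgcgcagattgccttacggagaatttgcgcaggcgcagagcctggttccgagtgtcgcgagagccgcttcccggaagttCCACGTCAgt
Sec23a: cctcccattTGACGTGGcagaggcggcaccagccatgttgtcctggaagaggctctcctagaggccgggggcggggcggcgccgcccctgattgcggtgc
The Arf1 stretch is chr10:44513995-44514094 on the minus strand and that of Arf4 is chr16:1903336-1903435 on the plus strand. Copb1 is shown to base 2 of the gene, as chr1:177872839-177872940 on the minus strand, since its element crosses the start. Copb2 is chr8:108040587-108040686 on the plus strand and Sec23a is chr6:82440905-82441004 on the minus strand. In Arf1 the element lies at bases -30 to -23 from the start and in Sec23a at -91 to -84, and in Copa it lies within the gene, at bases 31 to 38. The joined element with CCAAT and CCACG was found in 0 of 58 promoters, in 0.0657% of all promoters and in 0.176% of those of measured genes. CCACG alone, which the reverse complement of TGACGTGG contains, was in 37 of 58 (63.8%), against 31.6% of all promoters and 46.1% of those of measured genes. The cAMP response element TGACGTCA was in 1 of 58, Cope, or 1.72%, against 1.83% of all promoters and 3.12% of those of measured genes. These matches describe the letters of the window and were not tested against the changes.

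In the COPII coat the called genes divided much as all measured genes did (35.8% higher and 29.2% lower). Of 12 measured genes 4 were higher (33.3%), namely Sec16b, Sec13, Sec31a and Sar1b. Another 4 were lower (33.3%), namely Sec24a, Sec23b, Sec24b and Sec16a, and the median was -0.06. Sec24a, an adaptor that selects cargo for the vesicle, had the largest fall of all 60 genes. Its brightest probe, at chr10:37209174-37209233 of rn4 on the minus strand, read 2.01, 2.11, 2.10 and 1.93 on the NC arrays and 1.15, 1.08, 1.16 and 0.996 on the siRNA arrays. All siRNA arrays lay below all NC arrays, and the change was -0.94 ± 0.06 (SE), or 1.92-fold lower (limma adjusted p = 1.5e-05). The other 2 Sec24a probes were far dimmer and did not pass the test, with changes of -0.87 ± 0.38 and -0.17 ± 0.15. Its paralog Sec24b (chr2:227461766-227461825, minus strand) read 3.24, 3.24, 3.30 and 3.26 on NC arrays and 3.04, 3.01, 3.04 and 3.19 on siRNA arrays. The groups did not overlap, and the change of -0.19 ± 0.05 (limma adjusted p = 0.0145) turned to 0.12 when arrays were scaled to the median and 0.36 when scaled to the spike-ins. Sec24c, another of these adaptors, changed by -0.02 and was not called.

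Sec23b, which with Sec24 forms the inner coat and drives GTP hydrolysis by Sar1, was lower. Its probe (chr3:133140391-133140450, plus strand) read 1.70, 1.75, 1.82 and 1.82 on NC arrays and 1.51, 1.41, 1.50 and 1.43 on siRNA arrays. The siRNA arrays were all lower, by 0.31 on the log2 scale (-0.31 ± 0.05, limma adjusted p = 0.0010), although the change was -0.00279 when arrays were scaled to the median and 0.23 when scaled to the spike-ins. Its paralog Sec23a changed by 0.07 and was not called, nor was Sec23ip, a partner of Sec23 at exit sites, at -0.09.

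Sec16b, the shorter form of the scaffold of exit sites, had the second largest rise. Its probe (chr13:72830254-72830313, plus strand) was dim, at -2.20, -2.17, -2.27 and -1.88 on NC arrays and -1.36, -1.22, -1.33 and -1.02 on siRNA arrays. Every siRNA array was above every NC array, and the change was 0.90 ± 0.11, or 1.86-fold (limma adjusted p = 0.000234). With normexp background correction it was 0.29 and not called (limma adjusted p = 0.354). With normexp leaving out spots dimmer than their local background it was 0.56 and called higher. The probe named Sec16a (chr3:4570043-4570102, minus strand) is described in the file as an inositol polyphosphate 5-phosphatase, so which gene it reads is uncertain. It read 1.77, 1.79, 1.79 and 1.72 on NC arrays and 1.50, 1.55, 1.70 and 1.68 on siRNA arrays. The groups did not overlap, but the change of -0.16 ± 0.06 was near the threshold (limma adjusted p = 0.0437): leaving out any of the 4 NC arrays or siRNA replicates 1 or 2 ended the call, with adjusted p of 0.0530 to 0.109. It also turned to 0.15 when arrays were scaled to the median and 0.39 when scaled to the spike-ins.

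The outer cage subunits rose together. Sec13 was at 4.12, 4.01, 4.00 and 4.10 on NC arrays and at 4.41, 4.46, 4.48 and 4.36 on siRNA arrays, a change of 0.37 ± 0.05 (limma adjusted p = 0.000511). Sec31a was at 0.70, 0.60, 0.55 and 0.78 against 0.97, 0.83, 0.81 and 1.06, a change of 0.26 ± 0.08 (limma adjusted p = 0.0207). In both the lowest siRNA array was above the highest NC array. The Sec31a call was lost without NC replicate 2, NC replicate 3 or siRNA replicate 1, with adjusted p of 0.0510 to 0.0562. Of the Sar1 GTPases that start the coat, Sar1b changed by 0.16 ± 0.06 with overlapping groups (limma adjusted p = 0.0484), a call lost without any of 6 of the 8 arrays (adjusted p 0.0874 to 0.117), and Sar1a by -0.09, not called. Sec31b, the minor cage paralog, was above background on 1 NC array and on 0 siRNA arrays, and has no fold change here.

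The COPI coat moved mainly one way, with a median of 0.25. Of 8 subunits, Copz2, Copb2, Cope, Copg2, Copz1 and Copb1 were higher, and Copg1 (0.08) and Copa (-0.11) were not called. Copz2, the second form of the small zeta subunit, had the third largest rise of the 60 genes. Its brightest probe (chr10:85622094-85622153, plus strand) read 2.14, 2.13, 2.08 and 2.27 on NC arrays and 2.73, 2.90, 2.90 and 2.91 on siRNA arrays. The groups were far apart, with a change of 0.71 ± 0.06, or 1.63-fold (limma adjusted p = 6.29e-05), and the other Copz2 probe gave 0.70. Copb2, the beta prime subunit that binds retrieval signals, changed by 0.36 ± 0.05 (limma adjusted p = 0.000598), from 4.01, 3.88, 3.81 and 3.90 to 4.23, 4.29, 4.26 and 4.27. Cope, the epsilon subunit, changed by 0.32 ± 0.04 (limma adjusted p = 0.000404), from 4.59, 4.54, 4.54 and 4.58 to 4.83, 4.88, 4.91 and 4.93. In both genes no siRNA array fell within the NC range. The remaining rises were 0.26 for Copg2, whose other kept probe read -0.21 and was not called, 0.24 for Copz1, the common zeta form, and 0.15 for Copb1, the beta subunit. The Copb1 call was lost without any of 7 of the 8 arrays, all but siRNA replicate 4, with adjusted p of 0.0545 to 0.110.

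Among the Arf GTPases 2 of 6 rose (33.3%, near the 35.8% of all measured genes), with a class median of 0.05 beside 0.04 over all genes. Arf3, a close relative of Arf1 at the Golgi, read 5.03, 4.91, 4.93 and 4.92 on NC arrays and 5.41, 5.24, 5.39 and 5.41 on siRNA arrays at its brightest probe (chr7:137505306-137505365, minus strand). Every siRNA array was higher, although siRNA replicate 2 lay apart from the other 3, and the change was 0.41 ± 0.06 (limma adjusted p = 0.000477), with 0.66 at the other probe. Arf5 changed by 0.34 ± 0.07 (limma adjusted p = 0.00470). Arf1, the main recruiter of COPI, changed by 0.08 and Arf4 by 0.03, and Arf6, which acts at the plasma membrane, by -0.17 and Arf2 by -0.19. None of these 4 was called.

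The p24 family held the gene with the largest rise and also 1 that fell. Of 8 measured members, Tmed9, Tmed4, Tmed1, Tmed3, Tmed7 and Tmed2 were higher, Tmed10 lower and Tmed5 not called, with a median of 0.23. Tmed9 was read by 2 probes. Its brighter one (chr17:15070912-15070971, minus strand) gave 5.40, 5.37, 5.31 and 5.35 on NC arrays and 6.27, 6.40, 6.41 and 6.11 on siRNA arrays. The dimmer gave 3.77, 3.70, 3.41 and 3.68 against 5.07, 5.34, 5.32 and 4.78. Both probes separated the groups without overlap, by 0.94 ± 0.07, or 1.92-fold (limma adjusted p = 3.14e-05), at the brighter and by 1.49 ± 0.14 at the dimmer. Tmed10, a p24 protein that pairs with Tmed2 and Tmed9 in the cell, went down: its probe (chr6:109397968-109406341, minus strand) read 2.70, 2.77, 2.76 and 2.85 on NC arrays and 2.33, 2.63, 2.45 and 2.40 on siRNA arrays. No siRNA array reached the NC range, and the change was -0.32 ± 0.07 (limma adjusted p = 0.00600), though -0.00492 when arrays were scaled to the median and 0.23 when scaled to the spike-ins. The other rises were 0.35 for Tmed4, 0.30 for Tmed1, 0.25 for Tmed3, 0.21 for Tmed7 and 0.14 for Tmed2, the last lost without any of 6 of the 8 arrays (adjusted p 0.0617 to 0.0946). Tmed5 changed by -0.23 with an adjusted p of 0.0532 by limma, and Tmed6 had no kept probe.

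**Figure D3:**
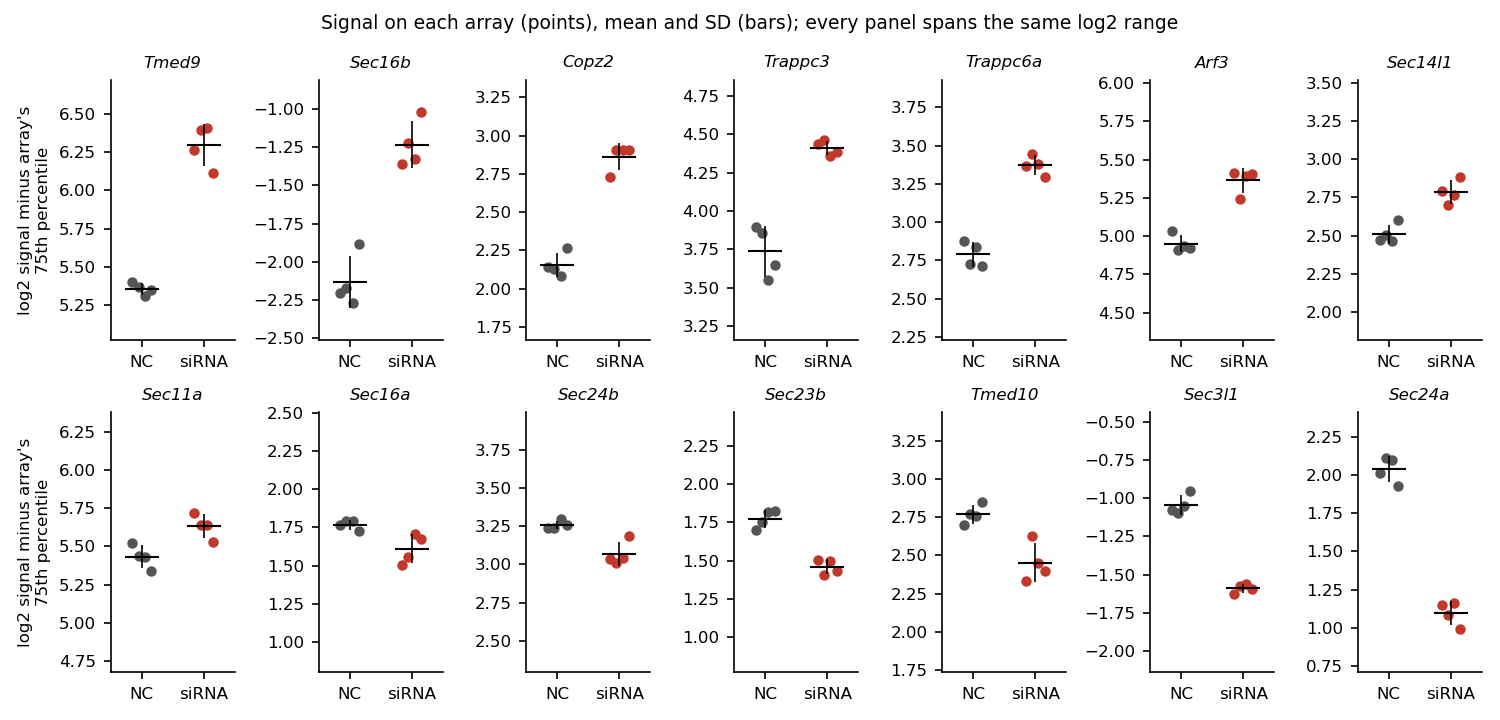
Signal of the 14 genes chosen by the size of their change or as the leading call of their class: each point is 1 array on a log2 scale relative to its 75th percentile, bars are the mean and SD of 4 arrays, and every panel spans the same range. In all 14 panels the NC (grey) and siRNA (red) points do not overlap, with the widest gaps in Tmed9 and Sec24a and the narrowest in Sec11a and Sec16a. The genes were picked for their change, so this separation follows largely from the choice. It held in 31 of all 60 genes and in 62.5% of all measured genes.

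TRAPP, the tether that joins incoming vesicles to their target and activates Rab1, had 7 of 13 subunits higher (53.8%) and 0 lower by their brightest probe. The class median was 0.16, and of all measured genes 35.8% were higher and 29.2% lower. Trappc3, the palmitoylated core subunit, led the class: its brightest probe (chr5:145643964-145644023, plus strand) read 3.90, 3.85, 3.55 and 3.65 on NC arrays and 4.44, 4.46, 4.36 and 4.38 on siRNA arrays. The NC arrays varied more than the siRNA arrays but stayed below them, and the change was 0.67 ± 0.08, or 1.60-fold (limma adjusted p = 0.000296), with 0.54 at the other probe. Trappc6a, 1 of a pair of alternative core subunits, read 2.87, 2.73, 2.84 and 2.72 on NC arrays and 3.37, 3.45, 3.38 and 3.29 on siRNA arrays (chr1:78869049-78869108, plus strand). These groups did not overlap either, and the change was 0.58 ± 0.06, or 1.50-fold (limma adjusted p = 9.9e-05). The core subunit Trappc1 changed by 0.38 and Trappc9, of the form acting later in the Golgi, by 0.37. Trappc2, Trappc5 and Trappc2l were also higher, by 0.25, 0.16 and 0.16. Those 3 calls and that of Trappc9 depended on single arrays. Trappc2 and Trappc2l were each lost without any of 6 arrays (limma adjusted p up to 0.0958 and 0.0905). Trappc5 was lost without any of 4 (up to 0.0564) and Trappc9 without any of 3 (up to 0.0522). The groups overlapped for Trappc2, Trappc2l and Trappc9, and the other Trappc5 probe was called lower, at -0.21. With normexp background correction Trappc2 and Trappc9 changed by -0.22 and -0.20 and were not called. Trappc10 (0.15), Trappc11 (0.09), Trappc4 (-0.05), Trappc8 (-0.12), Trappc6b (-0.14) and Trappc12 (-0.19) were not called.

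At the entrance to the pathway, 2 of 8 translocon and signal peptidase genes were higher (25.0%) and 0 lower, with a median of 0.05. Of all measured genes, 35.8% were higher and 29.2% lower. Sec11a, a catalytic subunit of signal peptidase, read 5.52, 5.44, 5.43 and 5.34 on NC arrays and 5.72, 5.64, 5.64 and 5.53 on siRNA arrays (chr1:137110278-137116025, minus strand). The lowest siRNA array was just above the highest NC array, and the change was 0.20 ± 0.06 (limma adjusted p = 0.0218), a call lost without any of NC replicates 2 and 4 and siRNA replicates 1 and 2 (adjusted p up to 0.0558). Sec62, which helps short proteins through the channel, changed by 0.17, with 0.36 at its other probe, and that call was lost without any of 5 arrays (adjusted p up to 0.0614). The channel genes Sec61a1 (0.19), Sec61b (0.06), Sec61g (0.04) and Sec61a2 (-0.02), the alternative peptidase subunit Sec11c (-0.08) and the BiP partner Sec63 (-0.21) were not called.

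The Sec22 genes Sec22a (0.06) and Sec22b (-0.03), the latter a SNARE that acts in fusion between the compartments, were not called. Of the Sec14-like proteins, which bind lipids and are no part of the coats, Sec14l1 was higher: it read 2.47, 2.50, 2.47 and 2.60 on NC arrays and 2.79, 2.70, 2.77 and 2.89 on siRNA arrays (chr10:107267814-107267873, plus strand). The groups did not overlap, and the change was 0.28 ± 0.06 (limma adjusted p = 0.00377), while its other probe gave -0.24 and was not called. Sec14l2 changed by 0.02 and was not called, and Sec14l3 and Sec14l5 had no kept probe. The pattern also took Sec1, a fucosyltransferase with no kept probe, and Sec3l1, whose current symbol is Exoc1, a subunit of the exocyst that tethers vesicles at the plasma membrane. Sec3l1 read -1.08, -1.10, -1.05 and -0.95 on NC arrays and -1.63, -1.58, -1.56 and -1.60 on siRNA arrays (chr14:33896377-33897287, minus strand). Every siRNA array was lower, by 1.46-fold (-0.55 ± 0.05, limma adjusted p = 5.78e-05).

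A ratio of 2 related genes within an array is not moved by scaling that whole array. Of 18 measured pairs, 12 had ratios that differed between the groups by an exact permutation test of 4 against 4 arrays, two-sided, each with p = 0.0286, the smallest this design allows, and 0.0429 after Benjamini-Hochberg adjustment over the 18. In those 12 pairs the ratios of the groups did not overlap. The share of other gene pairs whose ratios separate the groups is not given here. Taken singly, 62.5% of all measured genes separated them. The Sec16a to Sec16b ratio changed by -1.06 ± 0.12 (SE) on the log2 scale, subject to the doubt about the Sec16a probe, and that of Sec24a to Sec24b by -0.75 ± 0.08. By their brightest probes, Sec24a thus went down 1.68-fold relative to Sec24b, whichever constant an array was scaled by. The fold depends on the probes: the mean of a gene's kept probes changed by -0.66 for Sec24a and -0.16 for Sec24b. Trappc6a rose relative to Trappc6b by 0.73 ± 0.05, Tmed9 relative to Tmed4 by 0.59 ± 0.06 and Sec23a relative to Sec23b by 0.39 ± 0.08. The ratio of Copz1 to Copz2 changed by -0.47 ± 0.06, that of Arf1 to Arf3 by -0.34 ± 0.08 and that of Arf4 to Arf5 by -0.31 ± 0.06. Thus the second-named gene of each of these pairs gained on its partner. The smaller shifts were 0.27 for Sec11a to Sec11c, -0.25 for Sar1a to Sar1b, -0.22 for Copb1 to Copb2 and -0.18 for Copg1 to Copg2. With normexp background correction 0 of the 18 pairs passed, and the ratios of Sec23a to Sec23b and of Copg1 to Copg2 turned to -0.12 and 0.14. There Sec16a changed by 0.07 and Sec16b by 0.29, so the fall of their ratio was much smaller. No permutation p can lie below 0.0286, so whether a pair passes after adjustment depends on how many of the 18 pairs reach it. The calls are thus not separate for each pair. That 0 passed with normexp does not say how many ratios still separated the groups. In the main analysis the other 6 pairs did not pass: Arf1 to Arf6 at 0.25 (adjusted permutation p = 0.119), Sec61a1 to Sec61a2 at 0.22 (0.333), Sec13 to Sec31a at 0.11 (0.333), Trappc2 to Trappc2l at 0.09 (0.309), Sec22a to Sec22b at 0.09 (0.294) and Tmed3 to Tmed7 at 0.04 (0.543).

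**Figure D4:**
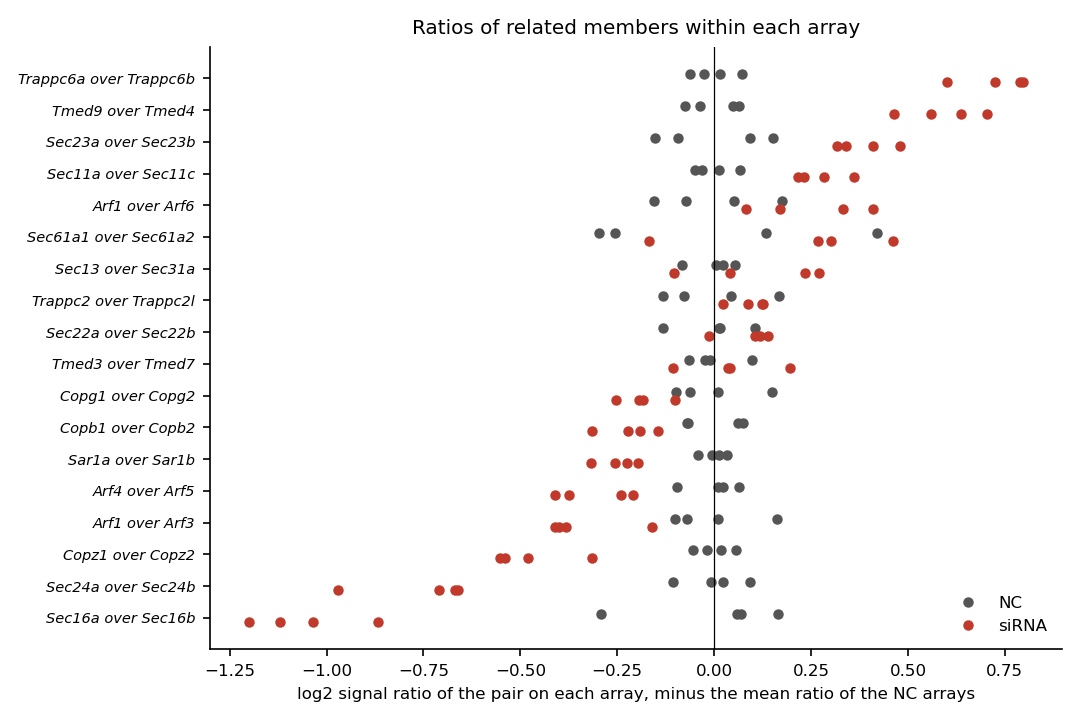
Log2 signal ratio of 2 related genes on each array, minus the mean ratio of the NC arrays, for the 18 measured pairs (NC grey, siRNA red, 4 arrays each). The pairs at the ends, Sec16a over Sec16b at -1.06 and Trappc6a over Trappc6b at 0.73, lie far from the NC points, and the 6 pairs that did not pass the test overlap them.

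Several genes were read by more than 1 probe, which shows how far a gene's value rests on the probe. Of 21 such genes, 6 had every kept probe called the same way, 6 had some probes called and none the opposite way, 7 had none called and 2 had probes called in both directions. Those 2 were Tmed7 and Trappc5. For Tmed7 the brightest of 5 probes changed by 0.21 ± 0.06 and another by -0.17 ± 0.06 (limma adjusted p = 0.0180 and 0.0488), with the remaining 3 negative and not called. For Trappc5 the brighter probe changed by 0.16 ± 0.05 and the other by -0.21 ± 0.05 (limma adjusted p = 0.0214 and 0.00546). The direction given for both genes therefore holds for the brightest probe.

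**Figure D5:**
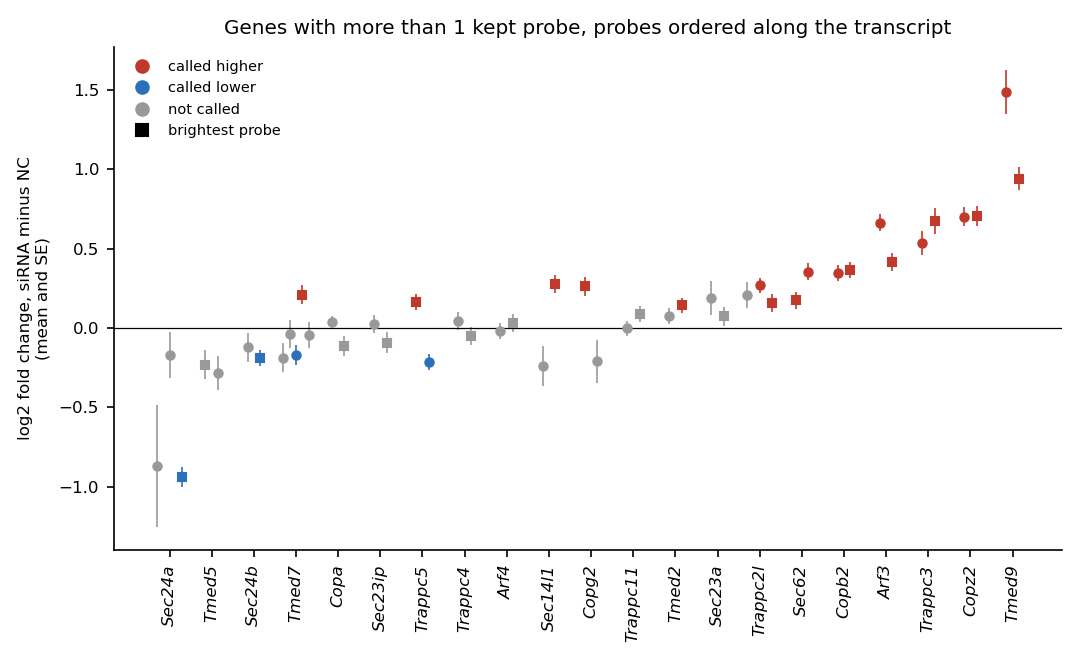
Log2 change (mean and SE, y axis) of every kept probe of the 21 genes with more than 1, with probes of a gene set side by side in their order along the transcript and the brightest as a square. Both Tmed9 probes and both Copz2 probes are high, while Tmed7 and Trappc5 have probes called higher (red) and lower (blue).

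Of the partners of these genes, 137 of 152 listed were measured, and 42 were higher, 27 lower and 68 not called, with a median of 0.04 and 0 past 2-fold. These are 30.7% higher and 19.7% lower, against 35.8% and 29.2% of all measured genes. Scaling to the median gave 100 and 8 partners, scaling to the spike-in controls 123 and 3, and quantile normalization 36 and 33. Signal recognition and translocation partners were 12 higher and 0 lower of 29, among them Emc10, of the membrane protein insertion complex, at 0.44 and Spcs1, of signal peptidase, at 0.30. COPII assembly and cargo partners were 6 higher and 1 lower of 17, with the cargo receptors Cnih1 at 0.38 and Ergic3 at 0.34 against Mcfd2, a partner in clotting factor export, at -0.28. COPI and Arf partners were 6 higher and 7 lower of 21: the Arf effector Gga2 was at 0.76 and the retrieval receptor Kdelr1 at 0.39, and the Arf regulators Arfgef2 and Asap1 at -0.40 and -0.38. Tethers and SNAREs between the compartments were 8 higher and 14 lower of 40 (20% and 35%). There the syntaxin Stx18 was at 0.39 and the tether subunit Cog4 at 0.30, while Golga3 was at -0.70 and Stx5, the Golgi syntaxin, at -0.45. For the exocyst and other post-Golgi genes, 10 were higher and 5 lower of 30, with the clathrin light chain Cltb at 0.63 and the exocyst subunit Exoc6 at 0.39 against Stx3 at -0.77 and Ap4e1 at -0.56. With spike-in scaling Mcfd2, Arfgef2, Asap1 and Stx5 turned to 0.26, 0.14, 0.17 and 0.10, and the Mcfd2 call was lost without NC replicate 3, NC replicate 4 or siRNA replicate 3 (limma adjusted p 0.0528 to 0.0591).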

How the data were processed

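Total RNA of BRL-3A cells was labelled with Cy3 and measured on 8 Agilent Whole Rat Genome arrays, per the labels' protocols. The authors' deposited scanner files hold spot intensity from Agilent Feature Extraction 12.0.3.1, per the file headers (12.0 in the submitters' processing notes), with the processed signal background-subtracted and not scaled between arrays. The authors' deposited series table of log2 values holds 86 probes, none of them of these genes, and was not used.

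Control spots and outlier spots (129 to 174 per array) were left out and spots of a probe averaged. The log2 processed intensity was centred on each array's 75th percentile. Probes well above background on at least 3 of 4 arrays of 1 group were kept (24853 of 41012), and the brightest of a gene's kept probes stood for the gene. Changes were tested with limma 3.58.1 in R 4.3.3 with Benjamini-Hochberg adjustment over all kept probes and no covariate, and called at an adjusted p under 0.05. The code was tested on simulated data. Genes other than the members were named through RefSeq (GRCr8): 18028 probes by accession, 3168 by current and 400 by older symbol, and 19416 stayed unnamed. Probe positions are the file's own, on rn4. The number of arrays, 4 a group, limits the precision.

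The genes, classes and partner lists were chosen with earlier results of these data known. Every measured member is given. Array by array values are given for the 6 called members with the largest rise and the 6 with the largest fall, and for the called gene with the smallest adjusted p in each class. From each partner list the 2 called genes per direction with the smallest adjusted p are named. Sec13, Sec31a, Copb2 and Cope are given array by array beyond this rule, as neighbours in the coats, chosen after their values were seen. Alternatives were median, quantile and spike-in scaling, normexp background correction (offset 50), no filter and a filter on all 8 arrays, the mean of a gene's probes, a block for the replicate number and leaving out each array.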

Additional observations from a re-analysis of the deposited data

Results flagged for a closer look

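In 120 groups of 4 arrays (60 genes, 2 groups), 5 had 1 array whose gap to the nearest other passed Dixon's critical value for 4 arrays, and chance gives about 1 in 20. Arf3 read 5.24 on siRNA replicate 2, where the others lay at 5.39 to 5.41. Copz2 read 2.73 on siRNA replicate 1, with the others at 2.90 to 2.91, and all 4 were above the NC arrays. Tmed1 read -0.25 on siRNA replicate 2, against -0.03 to -0.01 on the other 3. Copg1, of the COPI coat, read 3.85 on NC replicate 4, against 3.77 to 3.78. Tmed2 read 3.62 on NC replicate 1, with the others at 3.53.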

How the results depend on the processing

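Of the 34 called genes 23 kept their call without any 1 array. Leaving out an array gave 19 to 28 genes higher, 5 to 7 lower and a median of 0.09 to 0.12, and 33 to 44 partners higher and 23 to 28 lower. The replicate block gave 27 higher and 6 lower of these genes and 39 and 27 of the partners. Arrays of the same number deviated together with correlations of only 0.01, 0.03, -0.03 and 0.21, so the number was not taken as a pairing. For the ratios, the block allows no p below 0.125 and a fit without 1 array none below 0.0571, so neither was run as a test.

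Median scaling gave a median change of 0.43, 49 higher and 2 lower, and 100 and 8 partners. Spike-in scaling gave 0.66, 58 and 1, and 123 and 3. Quantile normalization gave 0.08, 25 higher and 14 lower, and 36 and 33 partners. The mean of a gene's probes gave a median of 0.0625, 23 higher and 6 lower, and 38 and 35 partners. With no filter on dim probes the median was 0.08, with 21 higher and 7 lower, and 35 and 26 partners. The filter on all 8 arrays gave 0.14, 28 and 7, and 42 and 28 partners. Normexp gave a median of 0.27, 5 higher and 1 lower, 6 and 4 partners and 0 ratios. Chosen after seeing the data, normexp leaving out spots below local background gave 26 and 7, 44 and 27, and 11 ratios. No share of all measured genes is given beside the counts for left-out arrays, the block, the filters, the mean of probes or normexp.

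Sign turns are listed for genes called in the main analysis or, where not called there, called with the other sign under the alternative; uncalled genes that crossed 0 without a call are left out. With spike-in scaling the sign turned in this sense for Arf2 (0.35), Arf6 (0.37), Copa (0.43), Sar1a (0.46), Sec11c (0.47), Sec16a (0.39), Sec22b (0.52), Sec23b (0.23), Sec23ip (0.45), Sec24b (0.36), Sec24c (0.52), Sec61a2 (0.52), Sec63 (0.33), Tmed10 (0.23), Tmed5 (0.31), Trappc12 (0.36), Trappc4 (0.49), Trappc6b (0.40), Trappc8 (0.42), Arfgef2 (0.14), Asap1 (0.17), Mcfd2 (0.26) and Stx5 (0.10). With median scaling it so turned for Copa (0.20), Sar1a (0.23), Sec11c (0.24), Sec16a (0.15), Sec22b (0.28), Sec23ip (0.22), Sec24b (0.12), Sec24c (0.29), Sec61a2 (0.29), Trappc4 (0.26), Trappc8 (0.19) and Mcfd2 (0.0316). Both add 1 constant to every change, which is how they turn small falls. By the same criterion normexp turned Sec16a (0.0737), Sec24b (0.0736), Trappc2 (-0.22) and Trappc9 (-0.20) and the ratios of Sec23a to Sec23b (-0.12) and Copg1 to Copg2 (0.14), and the mean of probes turned Tmed7 (-0.0452), Trappc5 (-0.0252) and Copg1 to Copg2 (0.0538). The cause was not tested. Slide as a block could not be fitted, since each slide held 1 group. Dim probes such as those of Sec16b, Trappc9 and the lesser Sec24a probes limit the precision of their values.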
